A study of Mus musculus with 4 samples.

Results

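Retained introns were described in mouse endothelial cells (ECs) that overexpress NOVA2. Every row of the deposited splicing table that is classed as intron retention was taken, which gave 311 introns of 272 genes among 1075 events. The table also holds 549 cassette exons and 215 alternative splice sites. The cells were the mouse EC line moEC, made into stable lines with a lentivirus, selected with puromycin and plated sparsely. Control ECs carried the empty HA vector, and NOVA2-overexpressing ECs carried HA-tagged human NOVA2 under the CMV promoter. Each group had 2 RNA-seq libraries, called replicates 1 and 2. The labels and methods do not say whether these came from separate cultures, so the spread between the libraries of a group may be technical.

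An intron is retained when the spliceosome leaves it in a polyadenylated RNA. Such an RNA may stay in the nucleus, may be spliced later, or may be degraded in the cytoplasm when the intron brings a stop codon into the reading frame. Most introns are removed by the major spliceosome, and a small class with its own 5' splice site sequence is removed by the minor spliceosome. NOVA2 is an RNA-binding protein that recognises clusters of 4 tetramers, namely CCAC and CCAT as well as TCAC and TCAT, and is known mainly for its control of cassette exons in neurons and ECs.

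The measure is the percent intron retention (PIR), the share of reads that join an exon to the intron, averaged over the upstream and downstream exon-intron junctions, against the reads that join both exons. The authors name total RNA and no selection of polyadenylated RNA, so the PIR does not tell a retained intron from one not yet spliced. The difference is always the mean PIR of NOVA2-overexpressing ECs minus that of control ECs, in percentage points. The authors kept only events whose libraries of the 2 groups did not overlap. The smallest gap between the groups was 5.01 points, so that all 311 introns differ by selection, and neither their direction nor the absence of overlap is a finding by itself. Single introns were compared by Fisher's exact test, two-sided, for which both libraries of a group were added up, adjusted over all 1075 events, with a threshold of 0.05. Because the reads are added up, the spread between the libraries of a group does not enter its p. This test compares these libraries, not the conditions, and after the selection its adjusted p is not a false discovery rate. An exact permutation test of 2 against 2 libraries cannot give a two-sided p below 0.333.

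Sequences of the introns that carry the results are shown first. Of the introns, 9 start with the minor-class 5' splice site ATATCCTT or GTATCCTT, and the first 30 bases of 8 of them are given with those 8 bases in capitals. All positions are in the mm9 assembly, the strand is in brackets, and the sequences read 5′ to 3′ in the direction of transcription.
Mapk11, chr15:88975775-88975804 (-): GTATCCTTggggagcagggtccagctgggg
Taf2, chr15:54880920-54880949 (-): GTATCCTTttcagtagcagttcagcaccat
Ttc23, chr7:74814735-74814764 (+): GTATCCTTtccctctagtcacaagcagaat
9930104L06Rik, chr4:124617790-124617819 (+): ATATCCTTcgagtgcttcctgactgactgc
Tmem161b, chr13:84411933-84411962 (+): GTATCCTTcaaaccatcattaacattgtga
Rfx5, chr3:94760529-94760558 (+): GTATCCTTgacccagagattaggactggag
2410002I01Rik, chr11:119958793-119958822 (-): GTATCCTTctgcactgttcccattggtggg
Aox1, chr1:58098338-58098367 (+): GTATCCTTtgctgtgttttgtgagggtgtc

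The branch point of minor-class introns lies close to the 3' end and often reads CCTTAAC or CCTTGAC. Either string was in the last 40 bases of 3 of the 9 introns and of 1 of the 302 others (0.331%). The ends of 2 of the 3 are shown with the match in capitals, searched on the transcribed strand only.
9930104L06Rik, chr4:124619557-124619596 (+): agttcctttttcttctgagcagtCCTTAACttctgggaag
Rfx5, chr3:94760603-94760642 (+): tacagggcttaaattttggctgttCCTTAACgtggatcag

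Whole introns are shown for short introns with large differences: introns 2, 8 and 9 of Efcab4a, the gene with the most deposited introns, intron 6 of Dgat1, intron 18 of Ercc2 and intron 1 of Tcta, which had the largest decrease. Capitals mark the 4 NOVA tetramers, searched on the transcribed strand, with overlapping matches joined. Of the 113 deposited introns of up to 300 nt, 99 (87.6%) held at least 1 of them.
Efcab4a intron 2, chr7:148649472-148649548 (+): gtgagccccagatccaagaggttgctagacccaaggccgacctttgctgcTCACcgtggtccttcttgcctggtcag
Efcab4a intron 8, chr7:148651585-148651664 (+): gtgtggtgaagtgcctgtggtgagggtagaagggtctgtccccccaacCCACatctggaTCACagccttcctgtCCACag
Efcab4a intron 9, chr7:148651737-148651944 (+): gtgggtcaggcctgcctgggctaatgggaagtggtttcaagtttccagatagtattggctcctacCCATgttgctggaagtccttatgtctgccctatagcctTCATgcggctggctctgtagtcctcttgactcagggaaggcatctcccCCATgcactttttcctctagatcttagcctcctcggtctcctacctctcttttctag
Dgat1 intron 6, chr15:76334403-76334544 (-): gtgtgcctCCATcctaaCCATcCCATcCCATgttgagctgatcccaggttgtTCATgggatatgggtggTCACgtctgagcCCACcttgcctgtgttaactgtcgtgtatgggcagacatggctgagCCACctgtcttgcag
Ercc2 intron 18, chr7:19978691-19978781 (+): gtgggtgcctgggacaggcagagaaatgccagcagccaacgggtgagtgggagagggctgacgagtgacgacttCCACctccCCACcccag
Tcta intron 1, chr9:108207760-108208052 (-): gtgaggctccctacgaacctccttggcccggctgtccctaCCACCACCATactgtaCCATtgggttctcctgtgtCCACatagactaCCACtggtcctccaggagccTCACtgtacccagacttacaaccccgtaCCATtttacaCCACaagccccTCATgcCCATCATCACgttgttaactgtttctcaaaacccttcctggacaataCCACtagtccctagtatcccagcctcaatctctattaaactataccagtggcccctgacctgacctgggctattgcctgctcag

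The Tcta intron held 14 such tetramers (4.78 per 100 nt) and the Dgat1 intron 8 (5.63 per 100 nt), although the PIR of one was lower and that of the other higher in NOVA2-overexpressing ECs. The Efcab4a introns 2, 8 and 9 held 1.30, 3.75 and 1.44 per 100 nt. Over the first 200 nt, or the whole intron if shorter, the median was 1.50 per 100 nt in the 311 introns and 1.50 in the 227939 annotated introns of protein-coding genes, and 88.7% against 91.4% of these windows held at least 1. A match is a description of the letters and not a binding site.

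PIR was higher in NOVA2-overexpressing ECs for 245 introns and lower for 66. By Fisher's exact test 98 introns rose and 27 fell, together 125, or 40.2% of the 311, and 153 introns were under an unadjusted p of 0.05. The background over all 1075 events was 30.7% called higher, 25.2% called lower and 55.9% called in either direction. This background mixes classes, since all 215 alternative splice sites are listed as higher, while 205 cassette exons were higher and 344 lower. A difference of at least 10 points was reached by 121 higher and 34 lower introns, against 33.0% of all events that were higher and 20.1% that were lower by this size. Both criteria were met by 60 higher and 21 lower introns of the 311. They were also met by 86 higher and 148 lower of the 549 cassette exons, and by 59 of the 215 alternative splice sites, all listed as higher.

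The median PIR of the 311 introns was 13.2% and 14.3% in control replicates 1 and 2, and 20.2% and 21.2% in NOVA2-overexpressing replicates 1 and 2. The median difference was 8.88 points, against a median replicate SD of 1.61 points (n = 2 per group). The higher introns had a median PIR of 11.5% in control and 21.1% in NOVA2-overexpressing ECs, and the lower introns one of 29.4% and 15.4%. The groups differed in depth, with a median of 35.9 and 44.2 reads per intron in the control libraries and 61.3 and 57.0 in the NOVA2-overexpressing libraries. The lowest coverage score, VLOW, was given to 76 and 36 introns in the control libraries and to 19 and 26 in the others, and the part of depth in the results was not tested.

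**Figure D1:**
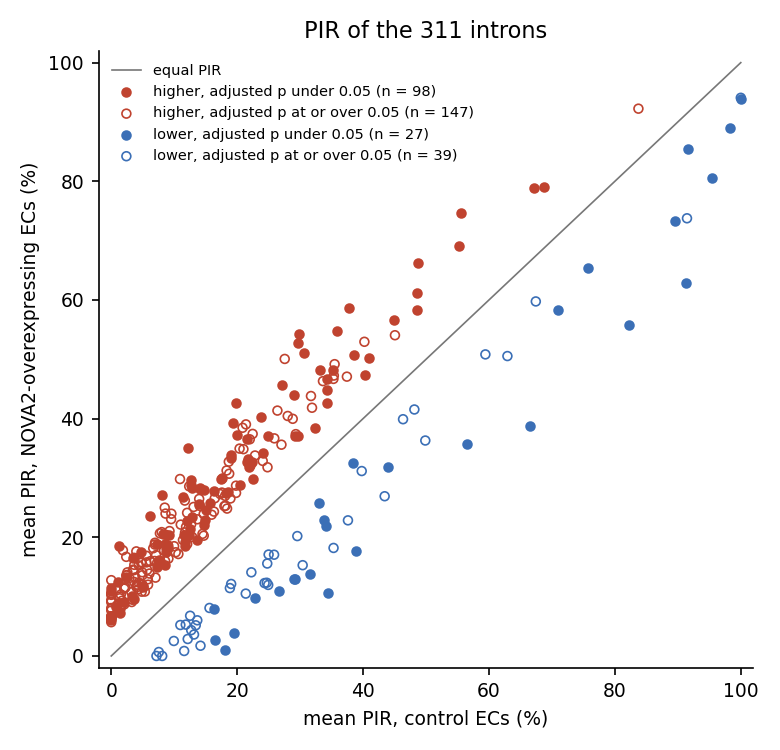
Mean PIR of each of the 311 introns in control ECs (horizontal axis, percent) and NOVA2-overexpressing ECs (vertical axis, percent), 2 libraries per group. Filled circles passed Fisher's exact test (98 higher, 27 lower), open circles did not, and the empty band along the line of equal PIR is the selection of the table.

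The raw junction reads were summed by kind, without scaling to depth. Over the 245 higher introns, upstream exon-intron reads were 2153 and 2817 in the control libraries and 5067 and 4750 in the NOVA2-overexpressing libraries, and downstream reads were 2153 and 2891 against 5219 and 5004. Exon-exon reads of the same introns were 9963 and 12438 against 12973 and 11853. Summed over the libraries of a group, exon-intron reads thus were 1.98 and 2.03 times as many at the upstream and downstream junctions, and exon-exon reads 1.11 times, while the reads over all deposited events were 1.34 times as many. Over the 66 lower introns the exon-intron reads were 1.07 and 1.17 times, and the exon-exon reads 1.68 times, as many. These ratios follow the direction by which the introns were split and describe it.

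Efcab4a, which encodes an EF-hand calcium-binding protein, was the gene with the most deposited introns. Introns 2 to 9 of its transcript with 9 introns, between chr7 positions 148649472 and 148651944 on the plus strand, were all in the table, and all 8 rose by Fisher's exact test. The PIR of intron 2 was 8.12% and 4.19% in the control libraries and 19.8% and 27.6% in the NOVA2-overexpressing libraries. Intron 9 had the largest difference, with 16.4% and 7.89% against 33.9% and 36.2%. The Wilson 95% intervals of intron 9 were 10.0% to 26.5% and 3.40% to 15.1% in control ECs and 23.7% to 44.6% and 26.9% to 47.7% in NOVA2-overexpressing ECs, and they cover counting error only. In both introns each NOVA2-overexpressing library was above each control library, as the selection requires, but some intervals overlapped. For intron 9 this was the case between control replicate 1 and NOVA2-overexpressing replicate 1. For intron 2 the interval of control replicate 1, 3.36% to 19.9%, overlapped those of both NOVA2-overexpressing libraries, 11.6% to 31.3% and 18.1% to 40.8%, and that of control replicate 2, 1.63% to 13.1%, overlapped the first of them. The mean of intron 9 went from 12.2% ± 6.03 to 35.1% ± 1.61 (SD, n = 2), a difference of 22.9 points (Fisher's exact test, adjusted p = 9.46e-06). Intron 2 went from 6.16% ± 2.78 to 23.7% ± 5.52, a difference of 17.5 points (Fisher's exact test, adjusted p = 0.00105).

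Intron 3 of Efcab4a had a PIR of 25.4% and 14.6% in control ECs and of 33.4% and 41.1% in NOVA2-overexpressing ECs. Intron 4 had 20% and 18.2% against 33.9% and 33.9%. Intron 5 had 11.5% and 14.0% against 29.4% and 27.1%. The mean PIR of these 3 neighbours differed by 17.3, 14.8 and 15.5 points. Intron 6 had 12.1% and 16.0% against 26.7% and 29.6%, and intron 8 had 17.0% and 11.3% against 32.2% and 24.3%. Intron 7 was retained least, with 3.09% and 6.35% against 20% and 15.1%. The adjusted p of introns 3 to 8 in Fisher's exact test was between 0.00266 and 0.0111.

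**Figure D2:**
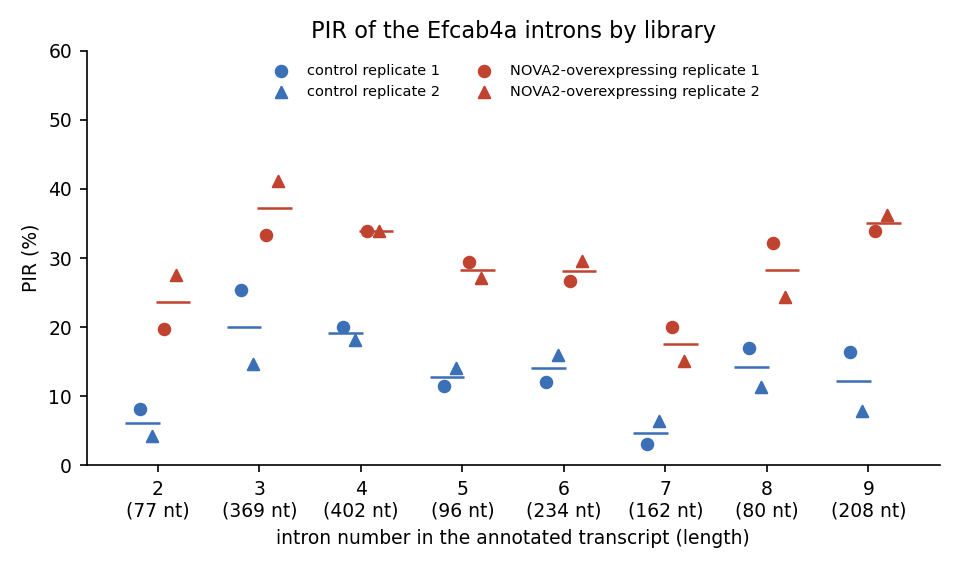
PIR in percent of the 8 deposited Efcab4a introns, ordered by intron number with the length below, with 1 symbol per library and a line at the mean of each group (n = 2). All 8 introns are higher in both NOVA2-overexpressing libraries, by 12.8 to 22.9 points in the mean.

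The PIR was higher at both junctions in each of the 8 Efcab4a introns, and no library had a balance p under 0.05 in any of them. Summed over the 8 introns, upstream reads were 53 and 59 in control ECs and 130 and 116 in NOVA2-overexpressing ECs, downstream reads were 62 and 59 against 144 and 147, and exon-exon reads were 352 and 453 against 340 and 315. The introns share the transcript, and a read pair can reach more than 1 of them, so they are not 8 independent observations. Exons of Gm10575 on the opposite strand overlap introns 2, 3 and 7, and the sources used here do not say whether the libraries keep the strand. Introns 4, 5, 6, 8 and 9 do not contain an annotated exon of another gene and differed by 14.1 to 22.9 points. A retained intron 4 or 5 brings a stop after 1 codon, and introns 2, 7 and 8 have no stop in the frame of the upstream exon. The length of intron 7, 162 nt, is a multiple of 3. Those of introns 2 and 8, 77 and 80 nt, are not, so that they would shift the frame of the next exon. Without control replicate 1 the test called 5 of the 8 introns, without control replicate 2 it called 3, and without either NOVA2-overexpressing library 6. Quasi-binomial regression, which estimates the spread between libraries for each intron, called 2 of the 8.

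Minor-class introns, the sequences of which open with the capitals shown above, were 9 of the 311 (2.89%). The same 8 bases start 583 of the 227939 annotated introns of protein-coding genes (0.256%) and 16 of the 4605 other introns of the genes with a retained intron (0.347%). Neither background was limited to introns that were measurably retained in these cells, so the shares do not set NOVA2 apart from retention in general. All 9 had a higher PIR in NOVA2-overexpressing ECs, where 78.1% of the other deposited introns did, and 5 of the 9 rose by Fisher's exact test, where 93 of 302 others rose. Their summed upstream reads were 111 and 158 against 244 and 226, their downstream reads 146 and 190 against 332 and 286, and their exon-exon reads 728 and 973 against 903 and 881. The PIR was higher at both junctions in each of the 9.

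Mapk11, which encodes the p38β kinase, had PIRs of 18.4% and 18.6% against 27.4% and 28.0% at its minor-class intron 9, a difference of 9.16 points with SDs of 0.11 and 0.43 (Fisher's exact test, adjusted p = 0.00157). A major-class intron of the same gene, intron 6, had 7.91% and 9.54% against 15.5% and 19.4% (Fisher's exact test, adjusted p = 0.0108), so that both deposited Mapk11 introns rose.

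Intron 12 of Taf2, a subunit of the general transcription factor TFIID, had 12.1% and 11.3% in control ECs against 20.4% and 17.9% (Fisher's exact test, adjusted p = 0.0140). Intron 4 of Ttc23, a gene of a ciliary protein, had 6.86% and 11.1% against 17.7% and 18.6% (Fisher's exact test, adjusted p = 0.00816). Intron 3 of 9930104L06Rik starts with ATATCCTT and was placed in an annotated transcript of this gene without a coding sequence. It had 10.8% and 13.3% against 25.5% and 20.2% (Fisher's exact test, adjusted p = 0.0161). In these introns both NOVA2-overexpressing libraries were above both control libraries, and the selection requires such a gap of every intron. A further 4 of the 9 did not pass the test. Intron 5 of Tmem161b differed by 10.1 points, intron 6 of Rfx5 by 7.61 and intron 2 of 2410002I01Rik by 12.7, with adjusted p of 0.147, 0.394 and 0.103 in Fisher's exact test. Intron 2 of Aox1, the gene of aldehyde oxidase, was at 0% in both control libraries, where 12 reads each allow up to 25.0%, and at 6.25% and 7.14% in the others (Fisher's exact test, adjusted p = 0.550). Without 1 control library the test called 3 or 2 of the 9, and without 1 NOVA2-overexpressing library 3 or 5. Quasi-binomial regression called 2 of the 9.

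**Figure D3:**
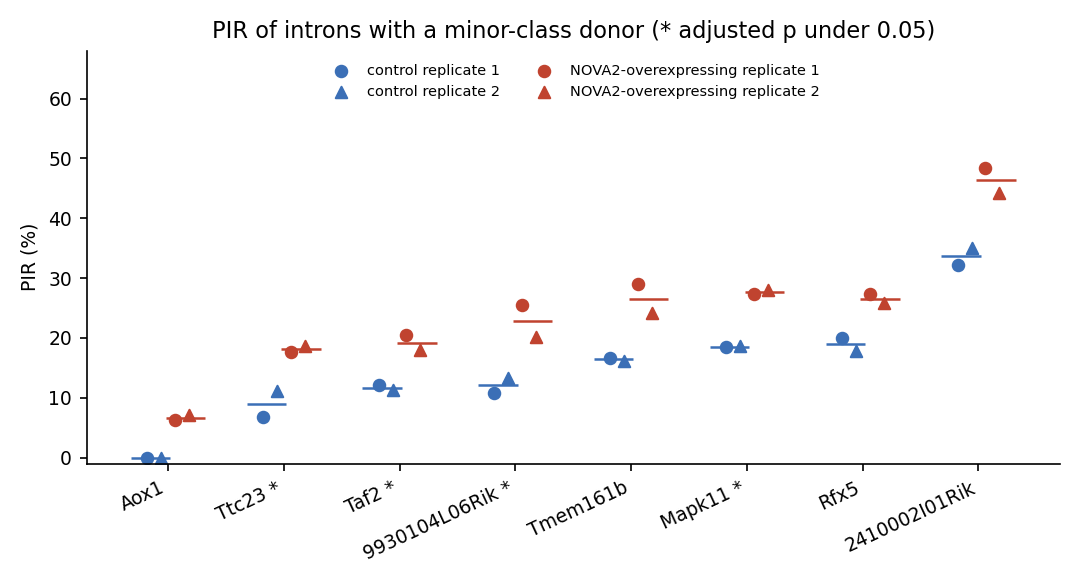
PIR in percent of 8 introns with a minor-class 5' splice site, ordered by mean PIR in control ECs, with 1 symbol per library and a line at the mean of each group (n = 2). The 4 introns with an asterisk passed Fisher's exact test. In all 8 both NOVA2-overexpressing libraries are above both control libraries, a gap that the selection requires.

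Among introns with at least 10 points, a passed test and a coverage score of LOW or better, 53 were higher and 9 lower. Without the score these were 60 and 21, and the share over all events was not counted with the score. The Tcta intron, 293 nt long and the first of 2 (chr9:108207760-108208052), had a PIR of 95.2% and 87.2% in control ECs, from 41 and 44 reads. In NOVA2-overexpressing ECs it had 58.8% and 67.0%, from 77 and 91 reads. Its exon-exon reads were 1 and 3 in the control libraries and 20 and 18 in the others. The PIR fell by 28.4 points (SDs 5.66 and 5.81, Fisher's exact test, adjusted p = 1.22e-05), and the PIR taken from either junction alone fell by a similar amount. Intron 1 of Dmpk, the myotonic dystrophy protein kinase (chr7:19669504-19671334, 1831 nt), had 67.4% and 65.6% against 41.1% and 36.6% (Fisher's exact test, adjusted p = 0.000121), a fall at both junctions. The last intron of Kctd17, with 1030 to 1324 reads the deepest of the named introns, had 75.6% and 75.8% against 63.0% and 67.9%, and fell by 10.3 points (Fisher's exact test, adjusted p = 7.04e-14).

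Other falls were seen in intron 7 of Carns1, the gene of carnosine synthase, and intron 8 of Unk, which encodes an RNA-binding zinc finger protein. Carns1 intron 7 had 74.4% and 67.7% against 54.3% and 62.3% (Fisher's exact test, adjusted p = 0.0169). Unk intron 8 had 34.6% and 32.9% against 18.7% and 27.2% (Fisher's exact test, adjusted p = 0.0263). In both, reads of the upstream and downstream junctions gave the same direction. An intron of Exosc8, a subunit of the RNA exosome, had 92.0% and 72.4% against 60.7% and 50.8% from 24 to 46 reads (Fisher's exact test, adjusted p = 0.00589), with the coverage score VLOW in at least 1 library.

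Increases with support at both junctions included lipid, DNA repair and signalling genes. Dgat1, which encodes the enzyme of the last step of triglyceride synthesis, had 3 deposited introns, all higher. Its intron 6 had 12.5% and 26.1% against 36.9% and 41.5%, a difference of 19.9 points (Fisher's exact test, adjusted p = 0.0102). Its intron 2 had 10.5% and 14.8% against 29.1% and 28.7% (Fisher's exact test, adjusted p = 0.0188), and intron 13 had 18.1% and 14.5% against 25.5% and 23.2%, which did not pass (Fisher's exact test, adjusted p = 0.150). Control replicates 1 and 2 lay far apart at intron 6, so that its SD of 9.61 points in control ECs was the largest of the 3. Intron 18 of Ercc2, the XPD helicase of TFIIH and of nucleotide excision repair, is 91 nt long and has no stop in frame. This length is not a multiple of 3, so that the intron would shift the frame of the next exon. Its PIR was 24.5% and 18.8% against 37.2% and 36.0% (Fisher's exact test, adjusted p = 0.000828).

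Intron 16 of Usp42, a deubiquitinase gene, had 9.89% and 6.13% against 24.8% and 29.3% (Fisher's exact test, adjusted p = 0.00727). Intron 3 of Rnaseh1, which encodes the nuclease for RNA in RNA-DNA hybrids, had 8.82% and 16.5% against 34.5% and 25.0% (Fisher's exact test, adjusted p = 0.0343). Intron 1 of Trmt2a, a tRNA methyltransferase gene, was high in all libraries, at 55.1% and 56.2% against 73.8% and 75.6% (Fisher's exact test, adjusted p = 0.00942). Intron 6 of Mapk8, the gene of the kinase JNK1, had 27.8% and 31.4% against 49.2% and 56.3% from 23 to 50 reads (Fisher's exact test, adjusted p = 0.0166). The largest increase of the 311 introns was in Mtap4, the gene of microtubule-associated protein 4, with 32.2% and 27.6% against 50.3% and 58.3% (Fisher's exact test, adjusted p = 0.0191), from 28 to 64 reads. The Trmt2a, Mapk8 and Mtap4 introns had the score VLOW in at least 1 library, and the Mtap4 intron was 1 of the 3 that are not annotated with both splice sites.

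The balance of reads between the junctions was described next. An intron that is retained whole should give similar reads at its upstream junction, its downstream junction and its body, and the quality string holds a balance p for that. It was under 0.05 in at least 1 library for 80 introns and in all 4 libraries for 36, and 17 introns had no mappable position in the body, 13 of which were among the 80. Upstream and downstream reads, summed over the 4 libraries, differed at least 2 times in 119 introns and at least 4 times in 65, with more reads upstream in 152 and downstream in 151. The PIR taken from each junction alone followed the direction of the whole PIR in 271 introns (219 higher, 52 lower), and in 17 the junctions had opposite signs. Of the 125 introns past the test, 110 had the direction of the whole PIR at both junctions (90 higher, 20 lower). A balance p of at least 0.05 in all libraries together with both junctions following was found in 218 introns, 181 higher and 37 lower. Of these 69 rose and 15 fell. Few reads can also give such a p, so it does not show that the reads were even. The reads of the shallowest library had a median of 30 in the 231 introns with no library under 0.05. In the 36 with all 4 libraries under 0.05 this median was 73.

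**Figure D4:**
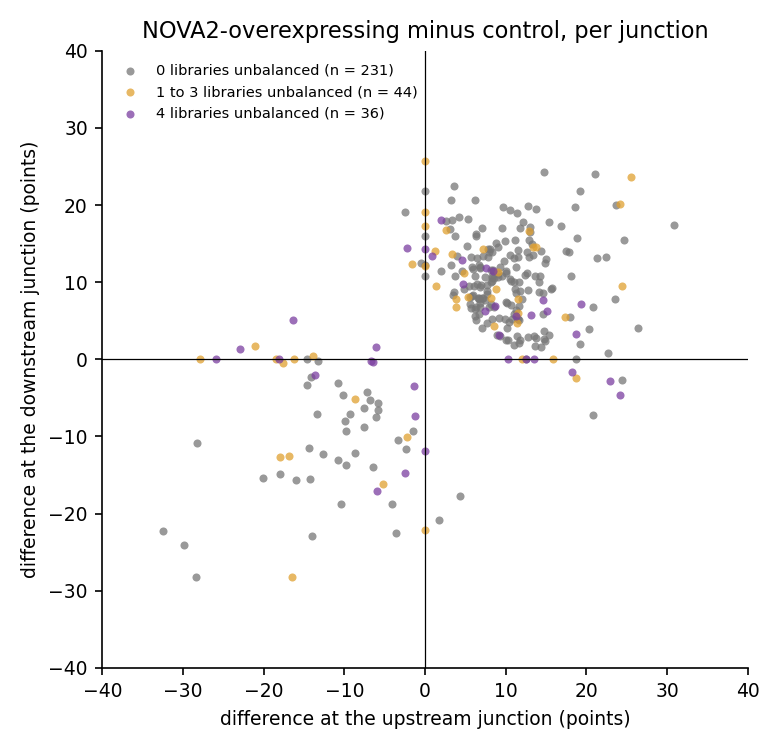
Difference in PIR between NOVA2-overexpressing and control ECs, in points, from the upstream junction alone (horizontal axis) and the downstream junction alone (vertical axis), 1 point per intron, coloured by the number of libraries with a balance p under 0.05. Most introns lie in the upper right or lower left quadrant, and for the introns on an axis the difference at 1 junction was 0.

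Several of the largest differences came from 1 junction. Exo1, the gene of a mismatch repair exonuclease, had PIRs of 38.3% and 33.3% against 47.4% and 62.2% at intron 2 (Fisher's exact test, adjusted p = 0.00609). Its upstream reads were 36, 29, 63 and 69 over the libraries, control first, and its downstream reads 0, 1, 0 and 0. Pcf11, which encodes a factor of mRNA cleavage and transcription termination, had 39, 65, 134 and 114 upstream and 0, 6, 7 and 6 downstream reads at intron 1, with PIRs of 20.9% and 26.7% against 42.3% and 38.1% (Fisher's exact test, adjusted p = 4.56e-05). In both genes nearly all exon-intron reads were at the upstream junction. Fam160a2 had no downstream read in any library and 51, 71, 109 and 93 upstream. Peci, the gene of a peroxisomal isomerase, had the reverse at intron 1, with no upstream read and 39, 63, 98 and 102 downstream, and Hps4, a gene of lysosome-related organelles, had 1, 0, 0 and 0 upstream and 36, 41, 65 and 66 downstream. In each of these introns 1 junction had few or no reads, and how well that junction can be mapped is not in the values used here. The Fam160a2 intron overlaps a deposited alternative 5' splice site, whose use was 58.4% in control and 68.8% in NOVA2-overexpressing ECs (Fisher's exact test, adjusted p = 0.0739). The part of that site in the upstream reads was not tested.

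The same was seen among decreases. Intron 25 of Aox1 had 38.9% and 38.8% against 19.6% and 15.8% (Fisher's exact test, adjusted p = 0.00897), with no downstream read in any library. Intron 4 of Daglb, the gene of a diacylglycerol lipase, and intron 10 of Zzef1 had 1 downstream read each over all 4 libraries, and Zfp341 none. Rab3ip had no upstream read. At intron 6 of Zxdc the whole PIR fell by 12.1 points, the PIR of the upstream junction was lower and that of the downstream junction was 5.05 points higher. At intron 6 of Gas2l1, among the largest increases with 31.4% and 44.0% against 62.2% and 55.2%, the PIR of the downstream junction alone had the opposite sign.

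Some introns touched another deposited event, as 19 of the 311 did. The Kctd17 intron contains a deposited cassette exon whose PSI, the percent spliced in, fell from 30.7% to 20.5% (Fisher's exact test, adjusted p = 1.43e-06), and the Meaf6 intron contains one whose PSI rose from 50.3% to 61.4% (Fisher's exact test, adjusted p = 0.000812). Meaf6 encodes a subunit of histone acetyltransferase complexes, and the PIR of its last intron was 32.2% and 38.4% against 46.6% and 49.8% (Fisher's exact test, adjusted p = 0.00121), nearly all of it from downstream reads. Intron 23 of Itpr1, the gene of an inositol trisphosphate receptor, overlaps an alternative 5' splice site whose use rose from 44.3% to 65.2% (Fisher's exact test, adjusted p = 0.00641), and its PIR was 32.1% and 22.0% against 44.3% and 47.1%, from 18, 18, 34 and 30 upstream and 0, 0, 1 and 2 downstream reads. The fallen introns of Tcta and Unk each border an alternative splice site. The use of the Tcta site rose from 3.32% to 12.4% (Fisher's exact test, adjusted p = 0.0136), and that of the Unk site from 68.2% to 83.4% (Fisher's exact test, adjusted p = 0.00574). Neighbouring events of 1 gene can share reads and are not separate evidence.

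Neighbouring introns of 1 gene were compared in the 27 genes with 2 or more deposited introns, 66 introns in all. All introns of the gene were higher in 15 genes, all were lower in 2 and the directions were mixed in 10. Dpp7, the gene of a dipeptidyl peptidase, had introns 1 and 2 at 16.4% and 16.1% against 27.9% and 27.8%, and at 13.2% and 16.2% against 27.4% and 28.5%, and both rose (Fisher's exact test, adjusted p = 0.0282 and 0.00727). Adjacent introns also moved apart. Carns1 intron 6, 84 nt long and separated from intron 7 by 1 exon, had 67.9% and 69.5% against 76.9% and 81.2% and rose (Fisher's exact test, adjusted p = 0.0288), while intron 7 fell. In Ncrna00085 intron 4 rose by 11.7 points and intron 5 fell by 9.38 points (Fisher's exact test, adjusted p = 0.00600 and 0.000240).

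Stag3, a cohesin subunit of meiosis, had 4 deposited introns, all higher by 7.21 to 13.6 points, and none passed Fisher's exact test, with adjusted p from 0.0932 to 0.326. Abhd1, a hydrolase gene, had 3, higher by 11.98 to 14.2 points, of which introns 2 and 5 rose (Fisher's exact test, adjusted p = 0.0223 and 0.0441), and exons of Preb lie on the opposite strand in all 3. The call at intron 5 rested on the upstream junction, with a difference of 22.6 points there and 0.83 at the downstream junction. Col7a1, the gene of collagen VII, rose at introns 114 and 115 by 11.6 and 9.43 points (Fisher's exact test, adjusted p = 0.0123 and 0.00890), while intron 101 was lower at 17.7% and 19.96% against 11.4% and 11.5% (Fisher's exact test, adjusted p = 0.221).

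By intron length, the introns of up to 150 nt were 54 higher and 11 lower, those of 151 to 500 nt 68 and 18, those of 501 to 2000 nt 89 and 22, and those over 2000 nt 34 and 15. Called introns in the same order were 26 up and 3 down, 31 and 8, 30 and 9, and 11 and 7. The share with a higher PIR was 83.1% in the shortest class and 69.4% in the longest, and the median difference 8.90 and 7.46 points. By subclass of the table, which the sources used here do not explain, 237 IR-S introns were 190 higher and 47 lower and 74 IR-C introns 55 and 19, with median differences of 8.88 and 8.78 points. IR-C introns were longer, with a median of 1114 nt against 538 nt for all.

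By retention in control ECs, introns under 10% were 116 higher and 4 lower, those from 10 to 25% 86 and 25, those from 25 to 50% 38 and 21, and those of 50% and over 5 and 16. An intron near 0% has no room for a lower value that passes the selection, and one near 100% none for a higher value, so this order is partly set by the scale. Of the 120 introns under 10%, 30 rose and none fell by Fisher's exact test. In the class of 50% and over, 4 rose and 11 fell, with Tcta and Dmpk among them.

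**Figure D5:**
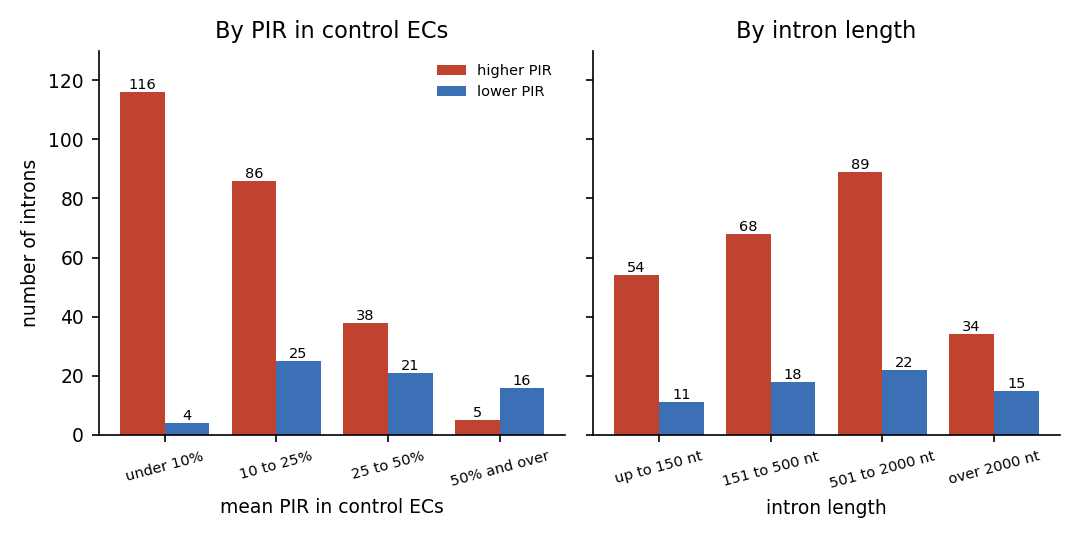
Number of introns with a higher (red) or lower (blue) PIR in NOVA2-overexpressing ECs, by mean PIR in control ECs (left) and by intron length (right), with the count above each bar. Higher introns are the majority in every class but that of 50% and over, with 5 higher and 16 lower.

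The annotation placed 274 introns inside coding sequence, 25 in 5' UTRs, 4 in 3' UTRs and 5 in noncoding transcripts. They were short, with a median of 538 nt, against 734 nt for the other introns of the same genes and 1423 nt for all annotated introns of protein-coding genes, and had a GC content of 50.9% against 49.1% and 45.1%. The match to the average 5' splice site, a log2 score in which a higher value is a better match, had a median of 7.61 against 8.05 and 8.15, and that to the average 3' splice site 8.39 against 8.97 and 9.42. Neither comparison set was limited to introns that were measurably retained in these cells. Of the 274 coding introns, 244 bring a stop into the frame of the upstream exon, 192 of them within 30 codons, and 30 do not. Stops were searched within the intron only, and 104 of the 311 introns have a length that is a multiple of 3. An annotated exon spans the whole intron in 70 cases, of which 63 were higher and 7 lower.

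Gene groups were counted from lists of symbols. DNA repair and cell cycle genes had 14 introns, all higher, of which 7 rose, with a median difference of 10.2 points, and Exo1, Rnaseh1 and Ercc2 had the largest differences among those 7. RNA processing genes had 8, of which 3 rose (Trmt2a, Pcf11 and Pan2) and 1 fell (Exosc8). Of these named introns, those of Exo1 and Pcf11 had nearly all exon-intron reads at the upstream junction. Those of Trmt2a and Exosc8 had the score VLOW in at least 1 library. Kinases, phosphatases and GTPase regulators had 23, with 10 up and 2 down by the test, and chromatin and transcription genes 26, with 7 up and 3 down. Metabolic genes had 25, with 8 up and 3 down, and genes of cytoskeleton, adhesion and angiogenesis 15, with 5 up and 3 down. Over all 311 introns 245 were higher, and 98 rose and 27 fell by the test. The medians of these lists lay between 10.2 and 11.3 points. The lists were drawn up with earlier results of these data known, so their medians cannot be set against that of all 311 introns.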

How the data were processed

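RNA-seq of 2 control and 2 NOVA2-overexpressing libraries was used. The authors ran vast-tools (version not given in the sources used here) on the mm9 assembly and deposited 1 table with, per event and library, a percent (PSI or PIR) and a quality string with the coverage score, junction reads, intron body reads, balance p and corrected reads. The authors kept events whose groups were apart by more than 5 points. For the events that the paper reports as regulated by NOVA2, it then required an absolute difference of at least 10 points. By the means used here, 121 higher and 34 lower of the 311 introns reached that size, so the 311 are a wider set. The deposited column of differences was not used, nor 12 columns of samples outside this series and 4 columns that pool both libraries of a group.

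Differences are between means of the 2 libraries. Fisher's exact test (scipy 1.17.1, numpy 2.4.6, pandas 2.3.3, Python 3.11.15) used corrected reads rounded per library, with Benjamini-Hochberg adjustment over 1075 events. Alternatives used limma 3.58.1 in R 4.3.3 on log2 ratios with a pseudocount of 0.5, and quasi-binomial regression. Scripts were tested on simulated data. Intervals are Wilson 95% intervals, and at a PIR of 0 the limit is 3 reads of the total. Reads over all events were 124374 to 193436 per library. Without molecular identifiers, intervals and limits cover counting error only.

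The PIR recomputed from raw junction reads equalled the deposited one within 0.01 points in 770 of 1244 values and kept the sign of the difference in all 311 introns. Sequences and annotation come from the mm9 genome and GENCODE M1, in which all 311 introns were placed and 308 have both splice sites. The named introns, 61 in all, were the 10 largest increases and decreases among introns with at least 10 points, a passed test and a coverage score of LOW or better, those of the genes with the most introns, the 3 largest called differences of each gene list, the 3 with the largest imbalance between junctions, and minor-class introns. Introns of other genes with 2 or more introns, and those set beside a named intron, were chosen after their values were seen. Members, lists and tests were chosen with earlier results of these data known. Some results on single genes are not reported here.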

Additional observations from a re-analysis of the deposited data

How the results depend on the processing

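With each library left out in turn, Fisher's exact test called 29 to 60 introns higher and 10 to 13 lower, in place of 98 and 27, with the fewest higher calls without control replicate 1. The counts past 10 points were 103 to 134 higher and 29 to 34 lower, and the median difference was 8.11 to 8.82 points. Of the 49 named introns past the test, 7 passed without each library in turn: those of Dmpk, Kctd17, Meaf6, Pcf11 and Tcta, intron 9 of Efcab4a and intron 9 of Mapk11. Only those of Dmpk and Mapk11 also passed under every other alternative tried for single introns. With quasi-binomial regression the other 5 had adjusted p from 0.0890 to 0.104, and Meaf6 and Pcf11 also missed the threshold with the junction of few reads alone (adjusted p = 0.162 and 0.271) and with the lower of both counts. The tool moved the calls further. Raw junction reads gave 154 higher. limma with weights gave 198 higher and 59 lower, without weights 204 and 52, with a pseudocount of 1 184 and 61, and with a replicate block 176 and 50. Quasi-binomial regression gave 41 and 16, and a threshold of 0.01 gave 40 and 10. The same replicate numbers do not pair the libraries by any label. The deviations of same-numbered libraries correlated at 0.00386 over all events and at 0.0726 over the retained introns. The replicate block called 7 of the 8 Efcab4a introns and 7 of the 9 minor-class introns. Quasi-binomial regression called 2 of the 8 and 2 of the 9, in place of 8 and 5.

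The lower introns depended more on coverage and balance. With scores of LOW or better 15 fell by the test and 12 by at least 10 points, and with OK or better 11 and 7, where 64 were higher by at least 10 points. With balanced reads in all libraries 15 fell by the test and 19 by at least 10 points. The downstream junction alone gave 15 falls by the test. The lower of both junction counts gave 58 higher and 7 lower by the test, 20 lower by at least 10 points and a median difference of 6.18 points. At 15 points 29 were higher and 17 lower, and at 20 points 7 and 6. The cause was not tested. Among 854 alternative values of the named introns, 12 reversed, in 6 introns, each with the junction that had few reads alone and with the lower of both counts: 1.28 points for Daglb, 1.79 for Zzef1, 5.05 for Zxdc, -2.27 for Hps4, -1.61 for Exo1 and -4.63 for Gas2l1. A PIR of 0 was found in 29 and 25 introns of the control libraries and in 4 and 4 of the NOVA2-overexpressing libraries. The control libraries were shallower and most introns had been selected as higher, and the part of depth in this was not tested.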

Other observations

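Exons of another annotated gene lay inside 32 of the 311 introns, 27 of them higher and 5 lower, and 15 rose and 3 fell by Fisher's exact test. The remaining 279 introns were 218 higher and 61 lower, with 83 up and 24 down by the test. Intron ends were GT and AG in 303 introns, GC and AG in 6, AT and AG in 1 and AT and AC in 1. By position, the first introns of a transcript were 35 higher and 9 lower, internal introns 177 and 46, and last introns 27 and 8.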
